A study of Mus musculus with 3 samples.

Results

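S100a genes encode small calcium-binding proteins, and 8 of them (S100a1, S100a4, S100a6, S100a8, S100a9, S100a10, S100a11 and S100a13) are described here across bone marrow cells of mice that differ in Fabp4. The 8 genes were taken by symbol from the 33696 genes of the deposited tables, whatever their level. The tables hold 10 further S100 genes, none of which passed 0.672 CPM (a gene's count in each 1000000 counted molecules) in any library. No molecule of S100a7l2 or S100z was counted, which at 3 UMIs of a library's total allows up to 0.0447 CPM in the wild-type library, 0.0412 in the heterozygous and 0.0651 in the homozygous one. The 8 genes thus carry nearly all S100 RNA of this marrow.

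The study profiled marrow of mice with intact Fabp4 (wild type), a knockout of 1 copy (heterozygous) or a knockout of both (homozygous) by droplet single-cell sequencing of RNA 3′ ends, and its title asks about leukaemia stem cells and normal blood stem cells. Fabp4 encodes a fatty acid carrier of fat cells and macrophages. Each genotype is a single library in which cells of 2 mice were mixed, so there are no replicates, no test is possible, and every interval below is a 95% interval for counting error. The labels give the genotype and tissue, but no strain, age, sex, deleted part of Fabp4 or leukaemia status.

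Depth was high enough to measure all 8 genes in every library. There were 9432 wild-type barcodes with 77173735 UMIs (unique molecular identifiers, 1 per captured RNA molecule), 10718 heterozygous ones with 78426908 and 8115 homozygous ones with 54160590. Cells of 500 or more UMIs, 200 or more genes and under 10% mitochondrial UMIs numbered 5604, 7957 and 4318 in that order. The mitochondrial limit removed 40.6%, 25.8% and 46.8% of barcodes, and kept cells had median totals of 10058, 7658 and 9036.5 UMIs. Pairs of libraries shared 21 to 26 barcodes. Fabp4 itself was scarce, at 0.745 CPM in the wild-type library (50 UMIs, interval 0.553 to 0.982), 0.521 CPM in the heterozygous one (38 UMIs, 0.369 to 0.716) and 0.108 CPM in the homozygous one (5 UMIs, 0.0352 to 0.253). That order follows the labels, although 3′ tags check a knockout only where they lie within the part removed.

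The sex-linked RNA of the libraries differed together with the genotype. Cells with Xist and no Y-linked RNA numbered 5151, 1148 and 3636 in the wild-type, heterozygous and homozygous libraries, and cells with Y-linked RNA and no Xist numbered 74, 4507 and 142. Sex, mouse, preparation and genotype therefore cannot be told apart in any comparison below. For S100a gene ratios past 1.5-fold, values within the Xist-bearing cells are given where they fall back within it or turn direction.

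S100 proteins bind calcium through EF-hand motifs and, once loaded, attach to partner proteins in the cell. S100A8 and S100A9 form the heterodimer calprotectin, one of the most abundant protein complexes of neutrophils, which sequesters zinc and manganese from microbes and acts outside cells as an alarm signal. S100A4, S100A6, S100A10 and S100A11 are broader cytoskeletal and membrane regulators that bind non-muscle myosin or annexins. The genes lie in a conserved cluster on mouse chromosome 3.

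In the RefSeq annotation of GRCm38.p6, S100a1 (chr3:90511034-90514330), S100a13 (chr3:90514233-90524581), S100a4 (chr3:90603770-90606045), S100a6 (chr3:90612894-90614414), S100a8 (chr3:90669071-90670034) and S100a9 (chr3:90692630-90695721) form a first group, in this order and with gaps between some of them. S100a11 (chr3:93520496-93526288) and S100a10 (chr3:93555117-93564645) form a second group. S100a1 (minus strand) and S100a13 (plus strand) overlap head to head at their 5′ starts, while the 3′ ends that the libraries count lie at the outer sides of the pair.

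The 250 bases before the start of 4 genes are shown because S100a8 and S100a9 ran together over the classes, while S100a6 and S100a4 of the same group did not. Sequences are from RefSeq on GRCm38.p6, 5′ to 3′ along the gene's strand, and the capitals mark motif matches found on either strand.

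S100a8 (chr3:90668821-90669070, plus strand): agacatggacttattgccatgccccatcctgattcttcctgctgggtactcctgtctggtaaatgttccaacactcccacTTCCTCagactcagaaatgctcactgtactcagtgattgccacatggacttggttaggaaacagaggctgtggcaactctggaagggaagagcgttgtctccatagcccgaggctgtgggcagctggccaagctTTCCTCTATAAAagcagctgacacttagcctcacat
S100a9 (chr3:90695722-90695971, minus strand): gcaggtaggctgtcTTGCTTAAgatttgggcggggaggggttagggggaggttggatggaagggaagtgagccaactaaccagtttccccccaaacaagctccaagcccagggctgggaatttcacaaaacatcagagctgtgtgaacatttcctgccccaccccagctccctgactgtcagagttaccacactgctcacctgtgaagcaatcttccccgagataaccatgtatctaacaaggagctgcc
S100a6 (chr3:90612644-90612893, plus strand): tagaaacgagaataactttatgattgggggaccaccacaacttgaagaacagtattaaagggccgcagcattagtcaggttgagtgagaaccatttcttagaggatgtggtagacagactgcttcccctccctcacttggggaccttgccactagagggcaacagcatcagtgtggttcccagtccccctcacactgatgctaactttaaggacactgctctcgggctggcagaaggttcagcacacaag
S100a4 (chr3:90603520-90603769, plus strand): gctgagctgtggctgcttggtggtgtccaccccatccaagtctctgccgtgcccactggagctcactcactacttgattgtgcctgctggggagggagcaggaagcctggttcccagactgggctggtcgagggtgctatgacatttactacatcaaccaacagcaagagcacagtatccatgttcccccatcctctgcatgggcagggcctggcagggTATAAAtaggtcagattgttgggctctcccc

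Both strands were searched for the PU.1 core GAGGAA, the C/EBP motif TTNNGCAA, the AP-1 motif TGANTCA and the TATA box TATAAA. The S100a8 window holds the PU.1 core at 170 and 36 bases before the start and a TATA box at 30 bases. The S100a9 window holds the C/EBP motif at 236 bases, the S100a4 window a TATA box at 31 bases, and the S100a6 window none of the 4. Of all 32851 windows of 250 bases, 23.3% hold the PU.1 core, 9.56% the C/EBP motif, 6.75% the AP-1 motif and 12.4% the TATA box. Windows were on hand for 7 of the 8 genes, S100a10 being the exception. Among the windows not shown, S100a11 holds the PU.1 core at 153 bases and the AP-1 motif at 136 and 38 bases, and S100a1 and S100a13 hold none.

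Cells were sorted into classes by scores of fixed marker genes that contain no S100 gene. Stem and progenitor-like cells (scored on genes such as Cd34 and Gata2) numbered 559, 180 and 70 in the wild-type, heterozygous and homozygous libraries. Primary granule-like cells, granulocyte-monocyte progenitors that make Elane, Mpo and Prtn3, numbered 1121, 829 and 890. Immature neutrophil-like cells (Ltf, Camp, Ngp) numbered 625, 2307 and 288, and mature neutrophil-like cells (Retnlg, Mmp8, Cxcr2) 152, 1314 and 158. Monocyte-like cells (Csf1r, Ccr2, F13a1) numbered 1166, 913 and 1382, and dendritic-like cells (H2-Aa, Cd74, Cd209a) 89, 400 and 74. A class is a range of a score, not a type: 32.7%, 24.6% and 32.8% of cells joined none, and between 1.12% and 19.7% of the cells of a class and library lay near its limit. Doublets were kept.

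S100a8 and S100a9 were the dominant S100 genes of the marrow. Over all kept cells S100a8 stood at 9373 CPM in the wild-type library, 29837 in the heterozygous and 10686 in the homozygous one, and S100a9 at 7886, 28559 and 9256. S100a11 followed at 1051, 1652 and 1040 CPM and S100a6 at 502, 2139 and 581 CPM, S100a6 being the higher of these in the heterozygous library. UMIs count 3′ ends, so these levels can be compared between genes without regard to gene length. Immature neutrophil-like cells held 50.3%, 58.2% and 36.8% of all S100a8 UMIs, and mature ones 4.85%, 15.1% and 9.56%. In immature neutrophil-like cells S100a8 reached 51892, 57044 and 66304 CPM and S100a9 39719, 48255 and 53110 CPM. In mature neutrophil-like cells S100a8 reached 37108, 45521 and 53464 CPM and S100a9 38125, 56463 and 67552 CPM. The wild-type library was the lowest of the 3 for both genes in both classes, with intervals apart.

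Expressed per cell, the pair took up a large part of a neutrophil's captured RNA. The median immature neutrophil-like cell gave 8.78% of its UMIs to S100a8 and S100a9 together in the wild-type library, 10.2% in the heterozygous and 11.7% in the homozygous one. In single cells the share reached 26.0%, 30.7% and 36.7%. Mature neutrophil-like cells had medians of 7.32%, 9.80% and 11.7%. Primary granule-like cells were spread widely: their median was 0.245%, 1.79% and 0.551%, and their 90th percentile 4.12%, 6.31% and 5.07%.

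**Figure D1:**
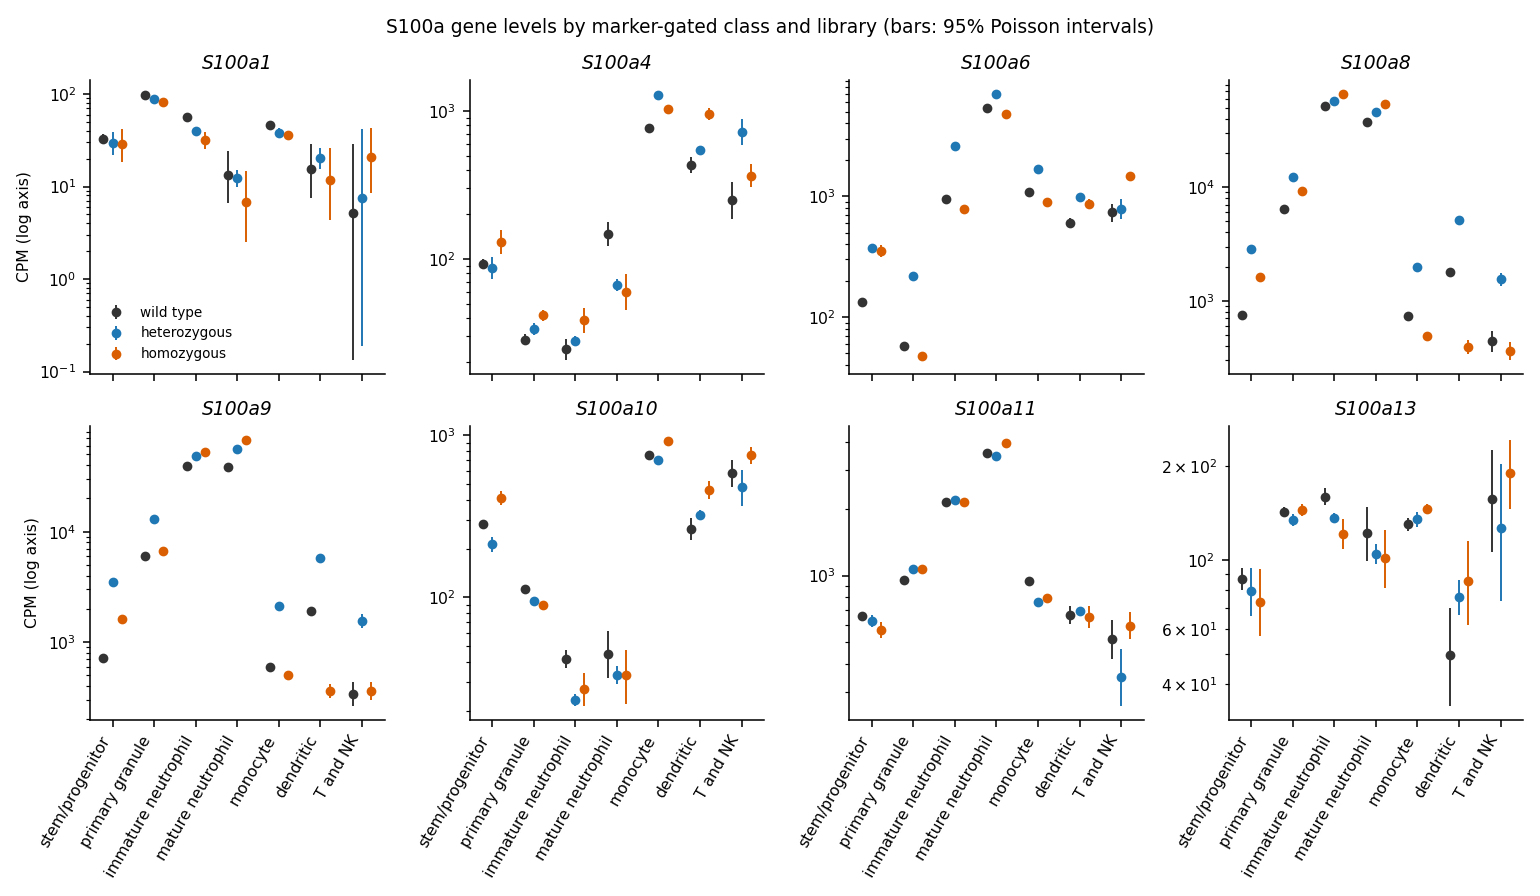
Level of each S100a gene in CPM (log axis) in 6 marker-gated classes and in T and NK-like cells, with 1 point per library and 95% Poisson intervals. S100a8 and S100a9 are highest in the neutrophil-like classes, and S100a4 and S100a10 in monocyte-like cells.

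Outside the granulocytes the pair was set beside T and NK-like cells, lymphocytes that do not make calprotectin. Those 24, 16 and 29 cells held 780 CPM of S100a8 and S100a9 together in the wild-type library (149 UMIs), 3101 CPM in the heterozygous (416 UMIs) and 725 CPM in the homozygous one (241 UMIs). The heterozygous T and NK-like level was higher than the wild-type one by 1.99 on the log2 scale (1.72 to 2.27), and the homozygous one differed by -0.11 (-0.41 to 0.20). Monocyte-like cells stood at 1337, 4087 and 993 CPM, which is 1.71 times (1.46 to 2.03), 1.32 times (1.20 to 1.46) and 1.37 times (1.21 to 1.56) the T and NK-like level of the same library. Stem and progenitor-like cells stood at 1.89, 2.06 and 4.49 times that level, dendritic-like cells at 4.75, 3.52 and 1.04 times, and primary granule-like cells at 16, 8.12 and 22.1 times. Free RNA in droplets can give UMIs in cells that do not make a gene, and its part was not tested. In the heterozygous library no monocyte-like cell had less than 0.127% of its UMIs from the pair.

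The share of cells with a UMI was high in monocyte-like and lymphoid cells alike. An S100a8 UMI was found in 96.2%, 100% and 93.8% of monocyte-like cells, at median totals of 10307, 8665 and 11103 UMIs. In T and NK-like cells it was found in 87.5%, 100% and 96.6%, at 5973, 7376 and 8925 UMIs. After each cell was thinned to 1000 UMIs the shares were 38.2%, 80.4% and 31.7% of monocyte-like cells against 25%, 87.5% and 34.5% of T and NK-like cells. The thinned monocyte-like shares were below those of T and NK-like cells in both knockout libraries, while the CPM levels were above them, so no order is read from the shares.

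**Figure D2:**
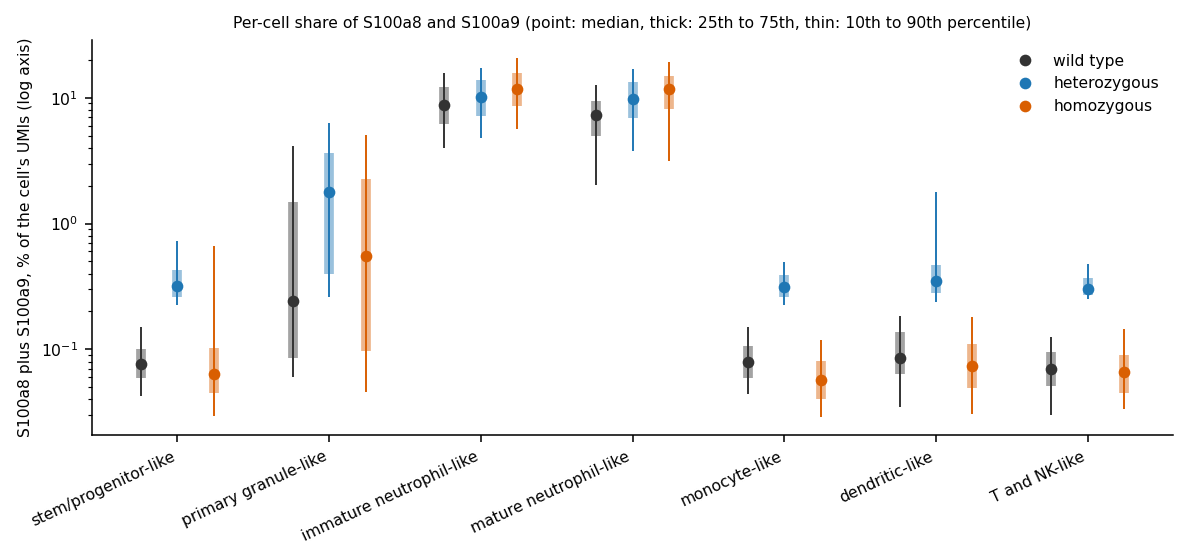
Share of a cell's UMIs from S100a8 plus S100a9 (percent, log axis) by class and library. Points are medians, thick bars run from the 25th to the 75th percentile and thin bars from the 10th to the 90th. Medians of monocyte-like cells (0.0790%, 0.313% and 0.0572%) lie beside those of T and NK-like cells (0.0697%, 0.303% and 0.0661%).

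The heterozygous library had more S100a8 and S100a9 RNA than the wild-type library, and more neutrophil-like cells to hold it. Together the genes made up 17259 CPM of the wild-type library, 58396 of the heterozygous and 19941 of the homozygous one. The heterozygous log2 ratio to wild type was 1.76 and the homozygous one 0.21. Within-class levels averaged at the wild-type mix of classes gave 0.57 and 0.40. Cells with Xist and no Y-linked RNA gave 0.80 and 0.24. Both ratios use the same wild-type library. In the whole libraries 5 of the 8 S100a genes were past 1.5-fold in the heterozygous comparison (S100a6, S100a8, S100a9 and S100a11 higher, S100a10 lower), where 29.2% of all genes were (11.6% higher, 17.6% lower). In the homozygous comparison it was 1 of 8, S100a4, against 21.1% of all genes.

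Within classes, 17 of 48 gene and class pairs were past 1.5-fold in the heterozygous library against wild type (15 higher, 2 lower), beside 22.1% of all such pairs of the whole gene table (10.3% higher, 11.8% lower). In the homozygous library 14 of 46 pairs were (8 higher, 6 lower), beside 22.6% (10.6% higher, 12% lower). A ratio counted here needed at least 20 UMIs in the cells compared. The 15 higher heterozygous pairs take in S100a8 and S100a9 in stem and progenitor-like, monocyte-like and dendritic-like cells, at log2 ratios of 1.42 to 2.28. T and NK-like cells had 1.99 for both genes together, and the part of free RNA was not tested. Between both knockout libraries, homozygous against heterozygous, 14 of 48 pairs were past 1.5-fold (2 higher, 12 lower), beside 25.4% (12.7% higher, 12.8% lower). The median ratio of the 8 genes in heterozygous monocyte-like cells was 0.35 on the log2 scale, where all genes had -0.01, and in homozygous monocyte-like cells it was -0.25, where all genes had 0.09.

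**Figure D3:**
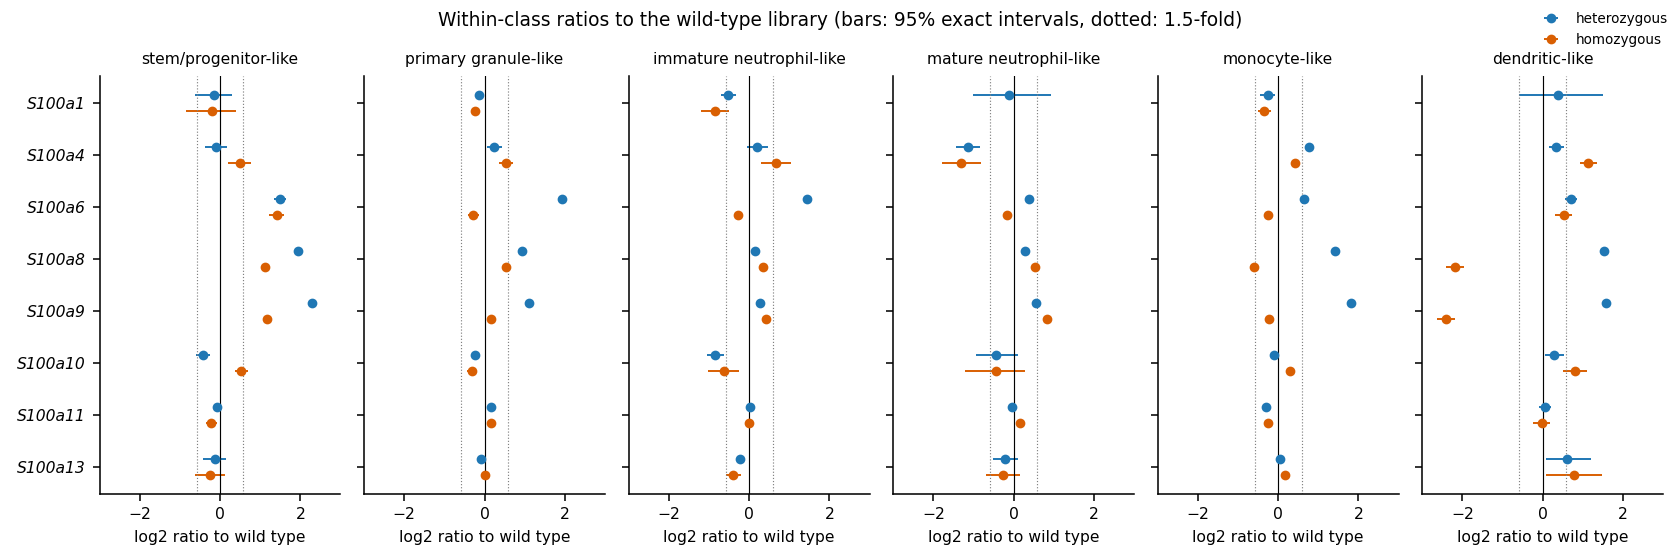
Log2 ratio of each S100a gene to the wild-type library within 6 classes, heterozygous and homozygous, with 95% exact intervals. The dotted lines mark 1.5-fold, and genes under 20 UMIs are left out. Heterozygous S100a6, S100a8 and S100a9 lie to the right of 0 in all 6 classes.

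The heterozygous S100a8 and S100a9 ratios were smaller in both neutrophil-like classes than in the other 4. On the log2 scale S100a8 had 0.14 in immature and 0.29 in mature neutrophil-like cells, and S100a9 had 0.28 and 0.57. In homozygous cells S100a8 had 0.35 and 0.53, and S100a9 had 0.42 and 0.83. The last of these, 67552 against 38125 CPM (interval 0.81 to 0.85), was the 1 neutrophil-like ratio of the pair past 1.5-fold.

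Primary granule-like cells had more of the pair in the heterozygous library. S100a8 was measured at 6407, 12250 and 9284 CPM and S100a9 at 6062, 12947 and 6753 CPM in the wild-type, heterozygous and homozygous libraries. The heterozygous ratios were 0.93 (0.92 to 0.95) and 1.09 (1.08 to 1.11). Cells with sex-linked RNA differed within that library: S100a8 stood at 13452 CPM in the 495 cells with Y-linked RNA only and at 7035 CPM in the 126 with Xist only. Wild-type cells with Xist only had 6163 CPM. Restricted to Xist-bearing cells, the heterozygous ratios were 0.19 for S100a8 and 0.20 for S100a9, no longer past 1.5-fold.

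In stem and progenitor-like cells, S100a8 was measured at 750, 2871 and 1620 CPM and S100a9 at 722, 3509 and 1632 CPM. The heterozygous ratios were 1.94 and 2.28 and the homozygous ones 1.11 and 1.18. For both genes together, T and NK-like cells had a heterozygous ratio of 1.99 and a homozygous one of -0.11. Medians over stem and progenitor-like cells showed another order. The pair took up 0.0762% of the UMIs of the median wild-type cell, 0.318% of the heterozygous and 0.0634% of the homozygous one. T and NK-like cells had medians of 0.0697%, 0.303% and 0.0661%, and the part of free RNA was not tested. The 90th percentile of stem and progenitor-like cells was 0.150%, 0.726% and 0.657%, so the homozygous sum came from the upper end of those cells. Among the 27 homozygous cells with Xist only, S100a8 stood at 485 CPM, and its ratio to the Xist-bearing wild-type cells was -0.65. The S100a9 ratio was 0.097 in the same cells. With every deposited barcode the homozygous S100a8 ratio was 0.55, no longer past 1.5-fold.

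Dendritic-like cells gave the most uneven values. S100a8 was measured at 1779, 5144 and 393 CPM and S100a9 at 1926, 5767 and 363 CPM, a homozygous ratio of -2.18 (-2.40 to -1.96) and -2.41 (-2.64 to -2.18). The wild-type sum came from few cells: the 26 wild-type cells with an Mki67 or Top2a UMI, genes of dividing cells, had 4023 CPM of S100a8 and the other 63 had 530 CPM. The corresponding homozygous values were 377 CPM in 28 cells and 407 CPM in 46. Median shares of the pair were 0.0860% and 0.0739% in the wild-type and homozygous libraries, and 0.351% in the heterozygous one. With neither a minimum score nor a margin for the class, the homozygous ratios turned to 0.18 and 0.069. With the highest-scoring doublets removed they were -0.30 and -0.27. The heterozygous ratios, 1.53 and 1.58, were 0.45 and 0.34 in Xist-bearing cells.

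S100a9 and S100a8 RNA were present in nearly equal number, but the balance shifted along the granulocyte series. Immature neutrophil-like cells held 0.765 S100a9 UMIs per S100a8 UMI in the wild-type library (0.761 to 0.769), 0.846 in the heterozygous (0.844 to 0.848) and 0.801 in the homozygous one (0.796 to 0.807). Mature neutrophil-like cells held 1.03 (1.01 to 1.04), 1.24 (1.23 to 1.25) and 1.26 (1.25 to 1.28). In each of the 3 libraries the mature value was the higher. Primary granule-like cells differed between libraries, at 0.946, 1.06 and 0.727.

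**Figure D4:**
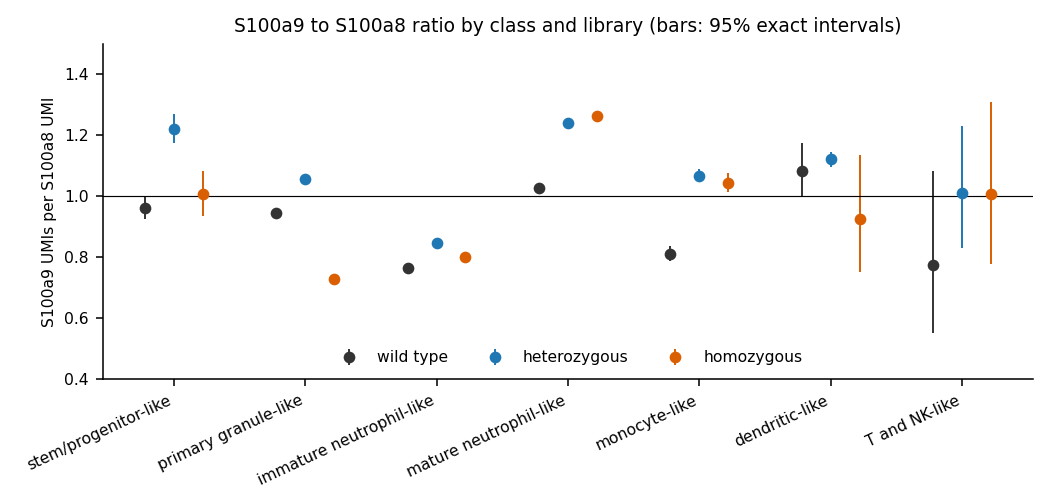
S100a9 UMIs per S100a8 UMI by class and library, with 95% exact intervals; the line marks equal numbers. All 3 libraries are below 1 in immature and above 1 in mature neutrophil-like cells.

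Cell by cell, S100a8 and S100a9 shares were more closely related in the early granulocytes than in immature neutrophil-like cells. Pearson's r over primary granule-like cells was 0.90, 0.91 and 0.84 (1121, 829 and 890 cells), whereas over immature neutrophil-like cells it was 0.18, 0.23 and 0.22. Over mature neutrophil-like cells it was higher again, at 0.65, 0.49 and 0.73. Cells of 1 library share its floor and depth, so these values are descriptions. Across the 18 pools of 6 classes and 3 libraries, the log levels of the genes had r = 0.996. The 3 genes most like both of them among 8239 candidates were Stfa1 (r = 0.988 with S100a8), Cstdc4 and Cstdc5, all cystatin-type protease inhibitors.

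A finer view orders the 10593 granulocyte cells by their mature neutrophil score minus their primary granule score, in 10 equal groups. S100a8 went from 4256 CPM in the first group to 49528 in the last in the wild-type library, from 7416 to 53604 in the heterozygous and from 4782 to 60693 in the homozygous one. S100a8 was above wild type with intervals apart in 10 of 10 groups in each knockout library. S100a9 was so in 10 of 10 groups for the heterozygous and 8 of 10 for the homozygous library, the other 2 groups being lower. Groups of equal score can still differ in the cells they hold. They are parts of the same libraries and their intervals cover counting error only, so the groups are not separate comparisons. The share of all genes that meet this rule was not taken. In primary granule-like cells the heterozygous S100a8 ratio of 0.93 was 0.19 in Xist-bearing cells. T and NK-like cells held 780 (wild type) and 3101 CPM (heterozygous) of the pair, and the part of free RNA was not tested.

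S100a6, or calcyclin, a partner of the ubiquitin ligase adaptor Cacybp, appeared later than S100a8. Along the same axis S100a6 went from 43.7 to 6002 CPM in wild-type, from 144 to 7564 in heterozygous and from 35.3 to 4696 in homozygous cells, with most of the climb in the last 4 groups. The heterozygous library was above wild type with intervals apart in 10 of 10 groups, and the homozygous library was below in 7 of 10. These groups are again parts of the same libraries, and the share of all genes that meet this rule was not taken. S100a8, in contrast, was already at 28903 CPM by the sixth wild-type group, where S100a6 stood at 212.

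**Figure D5:**
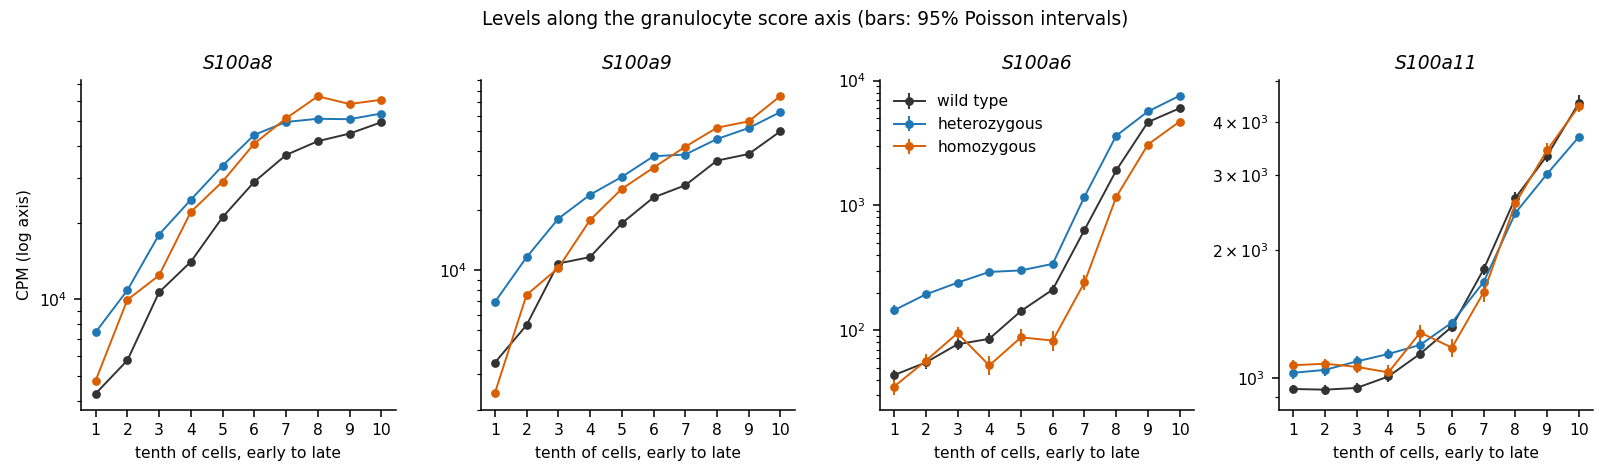
Levels of S100a8, S100a9, S100a6 and S100a11 (CPM, log axis) in 10 equal groups of granulocyte cells from early to late, by library, with 95% Poisson intervals. S100a8 and S100a9 climb from the first group and S100a6 and S100a11 mostly after the sixth. The heterozygous line is the highest of the 3 for S100a6 in every group.

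By class, S100a6 was highest in mature neutrophil-like cells, at 5352, 7003 and 4794 CPM in the wild-type, heterozygous and homozygous libraries. Immature neutrophil-like cells held 950, 2592 and 779 CPM, a heterozygous ratio of 1.45 (1.41 to 1.49). The median cell of that class had 0.0127%, 0.181% and 0% of its UMIs from S100a6. Monocyte-like cells held 1078, 1693 and 900 CPM, a heterozygous ratio of 0.65. The heterozygous library was the highest of the 3 in both classes, with no overlap of intervals.

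The heterozygous excess of S100a6 was found in each of the 6 classes, from 0.39 in mature neutrophil-like to 1.92 in primary granule-like cells (57.4 against 217 CPM). In 5 of them it was past 1.5-fold, although the dendritic-like ratio, 0.71, was 0.52 in Xist-bearing cells and 0.48 with doublets removed. Primary granule-like cells hold little S100a6, and their ratio lay near that of the whole libraries, 2.09 (502 against 2139 CPM); the part of free RNA in it was not tested. T and NK-like cells, which carry S100a6 RNA themselves, held 733, 790 and 1464 CPM. Xist-bearing immature neutrophil-like cells had 763, 1955 and 570 CPM in the same order, so the excess was also present without Y-linked cells.

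S100a6 differed strongly between dividing and other immature neutrophil-like cells. Cells with an Mki67 or Top2a UMI had 436 CPM and the rest 1697 CPM in the wild-type library, 1574 and 3872 in the heterozygous, and 324 and 1546 in the homozygous one. S100a8 differed less, at 47936 and 57648 CPM in the wild-type library. Homozygous stem and progenitor-like cells had 352 CPM of S100a6 against 132 CPM in wild type (ratio 1.41, 1.22 to 1.59), from 70 cells. The ratio dropped to 0.46 when the class margin was widened.

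S100a11, a partner of annexin A1, followed the neutrophil pattern with a small range between libraries. Mature neutrophil-like cells held 3556, 3470 and 3962 CPM, immature ones 2143, 2190 and 2147, and primary granule-like cells 952, 1066 and 1072. Within the 6 classes its log2 ratios lay between -0.31 and 0.17 in both comparisons, and none was past 1.5-fold. Its whole-library heterozygous ratio, 0.65, was past 1.5-fold all the same. Over the 18 pools S100a11 resembled S100a8 with r = 0.862, and its nearest genes were Hcst, Nudt4 and Capn1.

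S100a4 and S100a10 were the monocyte-type genes. S100a4, which binds the heavy chain of non-muscle myosin and is known for promoting cell motility, stood in wild-type monocyte-like cells at 763 CPM (748 to 778), in heterozygous ones at 1289 CPM (1265 to 1314) and in homozygous ones at 1026 CPM (1011 to 1041). These cells held 68.9%, 65.3% and 83.6% of all S100a4 UMIs. Immature neutrophil-like cells were the lowest, at 24.4, 28.0 and 38.8 CPM, so the highest class exceeded the lowest by 31.2, 46.0 and 26.4 times. The homozygous ratio of that low level, 0.67, was 0.21 in Xist-bearing cells.

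S100a4 was higher in monocyte-like cells of both knockout libraries, with the larger ratio in the heterozygous one (0.76, 0.72 to 0.80) and a homozygous ratio of 0.43 (0.39 to 0.46) that was not past 1.5-fold. In dendritic-like cells S100a4 was measured at 434, 545 and 955 CPM, a homozygous ratio of 1.14 (0.92 to 1.36). The whole-library homozygous ratio was 1.04, from 224 to 462 CPM, and monocyte-like cells made up 20.8% of kept wild-type and 32.0% of kept homozygous cells. Mature neutrophil-like cells went the other way, at 148, 67.0 and 60.2 CPM (ratios -1.15 and -1.30). The median mature neutrophil-like cell had no S100a4 UMI in any library, so that difference rests on 122 wild-type, 483 heterozygous and 53 homozygous UMIs. Among Xist-bearing cells the heterozygous ratio was -0.26, and with a wider margin the ratios were -0.54 and -0.31.

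S100a4 and S100a6 were related within the same cells outside the neutrophils, though less so in primary granule-like cells (Pearson's r of 0.35, 0.22 and 0.30). Pearson's r over monocyte-like cells was 0.63, 0.68 and 0.78 (1166, 913 and 1382 cells), and over dendritic-like cells 0.64, 0.52 and 0.68. In mature neutrophil-like cells it was 0.06, 0.00 and -0.07. The genes most like S100a4 over the pools were Ccr2, the chemokine receptor that brings monocytes out of the marrow (r = 0.979), Cd68 and Dusp22. For S100a6 they were Lilrb4b (r = 0.967), Fcer1g and Ccr1.

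S100a10, the light chain that pairs with annexin A2, ran opposite to S100a8 over the 18 pools (r = -0.950). Monocyte-like cells held 757, 704 and 926 CPM, stem and progenitor-like cells 284, 213 and 410, and immature neutrophil-like cells 41.8, 23.4 and 27.1. The heterozygous ratio in immature neutrophil-like cells was -0.84 (-1.06 to -0.62) and the homozygous one -0.63 (-1.02 to -0.25), at 255, 519 and 74 UMIs. In Xist-bearing cells the heterozygous ratio was -0.09. The homozygous ratio was past 1.5-fold in 2 of 11 other settings and was -0.14 with every deposited barcode. Homozygous dendritic-like cells had 461 CPM against 264 CPM in wild type (ratio 0.80, 0.51 to 1.10). The genes most like S100a10 were Npc2 (r = 0.987), Tmsb10 and Limd1.

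S100a13, which takes part in the release of growth factors that lack a signal peptide, and S100a1, best known from heart muscle, were the lowest of the 8 genes in each library. S100a13 stood at 127, 122 and 134 CPM over all cells and between 49.7 and 159 CPM in the 6 wild-type classes. S100a1 stood at 59.5, 45.3 and 49.7 CPM, with its highest level in primary granule-like cells (96.7, 88.2 and 82.5 CPM) and its lowest in mature neutrophil-like cells (13.4, 12.3 and 6.82). Homozygous immature neutrophil-like cells had 31.5 CPM of S100a1 against 56.8 CPM in wild type, a ratio of -0.85 (-1.21 to -0.51). Dendritic-like cells had S100a13 ratios of 0.61 (0.07 to 1.19) in the heterozygous and 0.78 (0.09 to 1.49) in the homozygous library, from 32 wild-type, 229 heterozygous and 43 homozygous UMIs. The heterozygous one was past 1.5-fold in 5 of 11 other settings and was 0.47 in Xist-bearing cells.

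Among the listed receptors and binding proteins of extracellular S100A8 and S100A9, the signalling receptors were low. Cd14 had the highest level of the list in mature neutrophil-like cells. Tlr4, the innate receptor for calprotectin, stood at 12.6, 11.9 and 10.5 CPM over all cells, its co-receptor Ly96 at 6.75, 6.12 and 8.40, and Ager, the RAGE gene, at 1.59, 1.44 and 1.19. Cd14, which presents ligands to TLR4, reached 291, 372 and 327 CPM in mature neutrophil-like and 218, 222 and 139 CPM in monocyte-like cells. Immature neutrophil-like cells held less Cd14, at 82.4, 161 and 103 CPM. Tlr4 stood at 26.8, 17.5 and 15.9 CPM in mature neutrophil-like and at 12.2, 4.68 and 6.62 CPM in monocyte-like cells. In homozygous monocyte-like cells, where 21.6% of all genes were past 1.5-fold, 0 of 6 measured receptor genes were higher past 1.5-fold and 3 were lower: Tlr4 (-0.88, -1.24 to -0.53), Cd14 (-0.65, -0.73 to -0.57) and Ager (-1.16, an interval of -2.62 to 0.19). In heterozygous monocyte-like cells, where 16.5% of all genes were past it, 2 of 7 were higher, Cd69 (0.70) and Cd36 (2.06, from 0.956 to 3.98 CPM), and 1 was lower, Tlr4 (-1.38, -1.92 to -0.88). The Cd36 ratio rests on 13 UMIs in 0.343% of wild-type and 34 UMIs in 1.20% of heterozygous monocyte-like cells.

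Within classes most listed partners of the other S100 proteins kept within 1.5-fold. Not all are intracellular, as the list includes Plaur and Plg. Over whole libraries 4 of 12 were higher and 2 lower in the heterozygous comparison (29.2% of all genes), and 1 was higher in the homozygous one (21.1%). Plaur was among those 4 (274 against 538 CPM). In heterozygous stem and progenitor-like cells 2 were higher and 1 lower (25.4%). In heterozygous mature neutrophil-like cells 1 was higher, Plaur (758 against 1198 CPM), and 2 were lower (31.8%). Of the 12 partner genes measured in monocyte-like cells, 0 were past it in either comparison, beside 16.5% (heterozygous) and 21.6% (homozygous) of all genes. Anxa2, the partner of S100a10, stood at 501, 449 and 482 CPM there, and Ahnak, a scaffold bound by that complex, at 536, 704 and 515. Myh9, the myosin bound by S100A4, stood at 327, 349 and 314 CPM. Stem and progenitor-like cells had Ahnak at 111 CPM (wild type) and 291 CPM (heterozygous), a ratio of 1.39 (1.22 to 1.55), and Anxa2 at 142 CPM (wild type) and 237 CPM (homozygous), a ratio of 0.74 (0.52 to 0.95). In homozygous dendritic-like cells 3 of 12 partners were higher past 1.5-fold, beside 28.6% of all genes: Anxa4, Anxa6 and Cacybp.

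In homozygous stem and progenitor-like cells 3 of 9 listed lineage transcription factors were higher past 1.5-fold and 1 was lower (28.2% of all genes). Homozygous primary granule-like cells had 2 of 9 higher (17.4%). Mature neutrophil-like and monocyte-like cells each had 1 of 9 lower (26% and 21.6%), and dendritic-like cells 2 of 8 lower (28.6%). In the heterozygous library stem and progenitor-like cells had 2 of 9 higher (25.4%), and no other class had more than 1. Most of these counts lie near the share of all genes and are not read as a trait of the factors. Of all gene and class pairs, 22.6% (homozygous) and 22.1% (heterozygous) were past it. Over whole libraries 4 of 9 factors were higher in the homozygous comparison, and 1 was higher and 1 lower in the heterozygous one, beside 21.1% and 29.2% of all genes. Cebpb, which drives granulocyte and monocyte genes, was measured in immature neutrophil-like cells at 373, 504 and 584 CPM, a homozygous ratio of 0.65 (0.55 to 0.74), and Gfi1, a neutrophil factor, at 31.5, 39.0 and 59.7 CPM (homozygous 0.92, 0.61 to 1.23). Cebpe, which controls secondary granules, stood at 339, 369 and 378 CPM there. In homozygous immature neutrophil-like cells 3 of 9 factors were higher and 0 lower, the third being Klf4, where 19.2% of all genes were past 1.5-fold. Stat3 was lower in homozygous monocyte-like cells (280 against 164 CPM, -0.78) and in mature neutrophil-like cells of both knockout libraries (469, 297 and 243 CPM).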

How the data were processed

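The deposited matrices hold raw UMI counts per gene and cell barcode, which the authors made with Cell Ranger 8.0.1, per the file headers. The same program, the aligner STAR and the mm10 build are given per the submitters' processing notes, with no annotation release, and 1735 gene IDs are not in the GENCODE M21 annotation of GRCm38. Coordinates are therefore RefSeq's. Libraries used the Chromium 3′ v3 kit, per the labels' protocols. The lowest deposited total was 500 UMIs, so barcodes had already been filtered.

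Groups follow the stated genotype. The genes, marker and partner lists were chosen with earlier results of these data known. Kept cells had 500 or more UMIs, 200 or more genes and under 10% mitochondrial UMIs. Each cell was scored on 16 marker lists and joined the class of its highest score, given at least 3 detected markers, a score of at least 0.5 and a lead of 0.25 over the next. A cell counts as near the limit within 0.1 of either. UMIs were summed per class and library and given as CPM. Intervals are exact Poisson for levels, exact conditional for ratios of levels and Clopper-Pearson for shares, at 95%, and treat UMIs as independent. Ratios of the main setting had no minimum number of cells, only the 20 UMIs, while each of the 18 pools used for correlations needed 50 cells. The named genes are all 8 S100a genes, the fixed receptor, partner and factor lists (7, 13 and 9 genes), and the 3 genes of at least 10 CPM on average with the highest correlation of log2 CPM plus 1 over the 18 pools. Examples from the fixed lists were chosen after their values were seen. The order along the granulocyte axis, the split by Mki67 and Top2a, the comparison of both knockout libraries and the T and NK-like reference were added after seeing the data.

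Scrublet's automatic threshold called 0.036%, 0.025% and 0% of cells, so it did not work, and doublets were kept. As an alternative the highest-scoring 423, 682 and 280 cells were removed. The interval and class code was tested on simulated data. Tools were Python 3.11.15, numpy 2.4.6, scipy 1.17.1, pandas 2.3.3, scanpy 1.11.5 and matplotlib 3.10.9. No protein sequences were used here.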

Additional observations from a re-analysis of the deposited data

Results flagged for a closer look

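The genes below had log2 ratios past 1.5-fold in opposite directions in different classes of the same comparison, with each interval on its own side of 0. The differences between classes were not tested, since each group is a single library.

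In the homozygous library against wild type, S100a8 was at 1.11 in stem and progenitor-like, -0.60 in monocyte-like and -2.18 in dendritic-like cells. These were past 1.5-fold in the same direction in 8 of 11 other settings each, and the first was -0.65 in Xist-bearing cells. For both genes together, homozygous monocyte-like and dendritic-like cells stood at 1.37 and 1.04 times the T and NK-like level, and the part of free RNA was not tested. Median stem and progenitor-like shares of the pair were 0.0762% in wild-type and 0.0634% in homozygous cells. S100a9 was at 1.18 in stem and progenitor-like, 0.83 in mature neutrophil-like and -2.41 in dendritic-like cells, and the first was 0.097 in Xist-bearing cells. S100a4 was at 0.67 in immature neutrophil-like, -1.30 in mature neutrophil-like and 1.14 in dendritic-like cells. The first was 0.21 in Xist-bearing cells and the second -0.31 with a wider margin. S100a10 was at -0.63 in immature neutrophil-like and 0.80 in dendritic-like cells. The first was past 1.5-fold in 2 of 11 other settings and fell to -0.14 with every deposited barcode, and the second was 0.54 in cells with no Mki67 or Top2a UMI. In the heterozygous library S100a4 was at -1.15 in mature neutrophil-like and 0.76 in monocyte-like cells, and the first was -0.26 in Xist-bearing cells.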

How the results depend on the processing

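No paired analysis was possible because each genotype is a single library. The log2 ratio of S100a8 plus S100a9 over whole libraries, 1.76 (heterozygous) and 0.21 (homozygous), was recomputed as follows, and the cause of each shift was not tested. With every deposited barcode it was 1.83 and 0.18, with at least 1000 UMIs and a mitochondrial share under 5% 1.71 and 0.16, and with a share under 25% 1.79 and 0.16. With doublets removed it was 1.73 and 0.24, with both genes left out of the denominator 1.82 and 0.21, and centred on the median of all genes 1.90 and 0.15. With equal weight per cell it was 1.61 and 0.15, with Xist-bearing cells 0.80 and 0.24, and at the wild-type mix of classes 0.57 and 0.40. Cells with Y-linked RNA and no Xist gave 0.99 and -1.40, from 74 wild-type and 142 homozygous cells. Cells with no Mki67 or Top2a UMI, an alternative added after seeing the data, gave 1.87 and 0.48.

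The counts of pairs past 1.5-fold, 17 and 14, were between 13 and 21 (heterozygous) and between 11 and 16 (homozygous) under the other settings run, apart from a 2-fold limit, which gave 11 and 7. Y-linked cells were not run for these counts, because too few wild-type cells per class had them. Of the 31 pairs past 1.5-fold, 20 stayed past it in the same direction with Xist-bearing cells only and 26 to 31 under each other setting. Reversed were S100a8 among Xist-bearing homozygous stem and progenitor-like cells (-0.65), and S100a8 (0.18) and S100a9 (0.069) in homozygous dendritic-like cells with no minimum score and no margin. Low counts leave wide intervals: the homozygous dendritic-like S100a13 ratio, 0.78 from 43 and 32 UMIs, spans 0.09 to 1.49.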

Other observations

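Cells that joined no class (1834, 1954 and 1416 in the wild-type, heterozygous and homozygous libraries) had S100a8 at 7518, 23107 and 13286 CPM and S100a9 at 6582, 23742 and 12622 CPM. S100a6 stood there at 342, 1627 and 320 CPM, and S100a4 at 157, 144 and 222 CPM. Their median totals were 8239.5, 6788.5 and 3344.5 UMIs, and their median mitochondrial shares 3.43%, 2.64% and 5.34%.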
